A study of Danio rerio with 18 samples.

Results

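The nuclear arginine tRNAs of zebrafish (Danio rerio) were followed through early development, up to the close of gastrulation. They were taken as every nuclear entry of the tRNA count table named tRNA-Arg, which gave 52 of 2578 nuclear entries. Of these, 49 were single tRNA transcripts and 3 were groups of isodecoders, that is tRNAs with the same anticodon and different bodies, that the authors' read assignment had left joined. The same 5 arginine anticodon families stood in a second table on aminoacylation, which held 46 families. Abundance was measured in 12 libraries of wild-type embryos of the TLAB strain, 2 for each of 6 time points. These were the unfertilized egg (0 hours post fertilization, hpf), the 256-cell stage at 2.5 hpf, the 1000-cell stage at 3 hpf, sphere at 4 hpf, and the gastrula stages shield at 6 hpf and bud at 10 hpf. Charging was measured in 6 further libraries of the same strain, 3 at sphere and 3 at bud. All libraries came from pooled whole eggs or embryos, so a smaller number of cells that carry a tRNA and less of it in each cell could not be told apart. The replicates of 1 stage were labelled as separate samples. By the study's methods those for abundance were collected on different days, and no days were given for the charging samples. No parents were named, so p-values measured the spread between these pools.

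Arginine has the codons that begin with CG and, beside them, AGA and AGG. The adenosine that opens the ACG anticodon is normally edited to inosine, which lets this tRNA read CGU, CGC and CGA. UCG pairs with CGA, CCG with CGG, UCU with AGA and CCU with AGG, and an anticodon that opens with U can also read the matching codon that ends in G by wobble. A single arginyl-tRNA synthetase charges all of them in the cytosol. Many tRNA genes in zebrafish are present in several identical copies, and a tRNA transcript here stands for all gene copies with 1 mature sequence.

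The 52 entries stood for 421 gene copies. ACG had 138 copies in 7 entries, UCU 132 in 27, CCU 78 in 4, UCG 44 in 10 and CCG 29 in 4. The joined groups took 117 of the ACG copies (tRNA-Arg-ACG-1/6), 97 of the UCU copies (1 group of 11 names) and 19 of the CCG copies (tRNA-Arg-CCG-1/3). Only 31.0 to 36.5% of the arginine counts of a library therefore fell on single transcripts. All UCG and CCU counts did so, but only 3.57 to 6.34% of the ACG counts and 9.54 to 13.7% of the UCU counts. A transcript was called detected where it held at least 0.005% of the nuclear tRNA counts in 1 library or more. This held for 28 of the 49 single transcripts, and the 21 under this level, 17 of them UCU, together took at most 0.331% of the arginine counts of any library. The values on either side of the level lay close together, with tRNA-Arg-UCU-24 at 0.00514% just inside it and tRNA-Arg-UCU-7 at 0.00492% just outside.

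Libraries held from 791432 to 8525792 nuclear counts and from 64721 to 713264 arginine counts. The 95% Wilson interval of a family's share of the arginine counts was at most 0.384 percentage points wide on either side, which covers counting error only. Replicates of each stage differed by far more than counting error over the arginine entries, with chi-square values of 30.0 to 93.8 per degree of freedom, so no pair looked like repeats of a single library. The first egg library was the shallowest. Shares and normalised counts were relative to the other tRNAs of a library. Rises and falls of abundance below are therefore relative changes, and amounts per embryo were not worked out. Normalised counts of transcripts were scaled on the resolved transcripts and those of families on the family sums, so their log2 changes are not on the same scale. At bud against egg, scaling by total nuclear counts instead moved the median detected transcript by -0.38 in log2 and the median family by -0.07.

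Arginine tRNAs made up a nearly fixed part of the nuclear tRNA pool. Their share was 8.18 and 8.81% of nuclear counts in the egg libraries, 8.37 and 8.27% at 256-cell, 8.38 and 8.51% at 1000-cell, 9.20 and 8.67% at sphere, 8.66 and 8.80% at shield and 8.87 and 9.40% at bud. The gastrula libraries (shield and bud together, n = 4) overlapped the 8 earlier ones. Their mean share was 0.388 percentage points above that of the earlier libraries, which did not pass the exact two-sided permutation test over the 12 libraries (p = 0.0889, adjusted p = 0.178 over 6 shares tested). This test, used for all shares below, treated the libraries of a stage as independent, although they share that stage. It therefore does not measure the spread between stages.

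Among the arginine anticodons, ACG held about as many counts as the other families together. Its share of the arginine counts was 46.9 and 47.7% in egg, 53.6 and 51.2% at 256-cell, 46.9 and 49.3% at 1000-cell, 44.2 and 40.4% at sphere, 48.6 and 48.2% at shield and 50.7 and 50.8% at bud. The lowest values were those of sphere and the highest those of 256-cell. The gastrula libraries lay 2.08 percentage points above the earlier ones, with overlap (exact permutation p = 0.362; adjusted p = 0.434).

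UCU, the main reader of AGA, came second in most libraries and moved over a wide range. It made up 22.3 and 21.7% of the arginine counts in egg, 14.6 and 17.9% at 256-cell, 21.3 and 20.5% at 1000-cell, 24.3 and 26.6% at sphere, 21.2 and 20.4% at shield and 17.8 and 14.8% at bud. It was thus low at 256-cell and bud and high at sphere, and the mean gastrula share of 18.6 ± 2.86% (SD, n = 4) lay within the range of the earlier libraries, which averaged 21.2 ± 3.69% (SD, n = 8; exact permutation p = 0.234, adjusted p = 0.352).

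CCG, the reader of CGG, was the least abundant family and the only one of the 5 whose share passed the test between gastrula and earlier libraries. Its share was 5.77 and 6.17% in egg, 5.82 and 7.38% at 256-cell, 7.41 and 6.27% at 1000-cell, 6.09 and 6.94% at sphere, 5.19 and 4.81% at shield and 3.76 and 4.13% at bud. All 4 gastrula libraries lay below all 8 earlier ones. The mean fell by 2.01 percentage points, from 6.48 ± 0.668% (SD, n = 8) to 4.47 ± 0.648% (SD, n = 4; exact permutation p = 0.00202, the smallest that this design allows; adjusted p = 0.0121). Libraries of the same stage counted as independent here, so the exact permutation p of 0.00202 does not measure the spread between stages. With the 2 bud libraries alone set against the earlier stages the exact permutation test gave an adjusted p of 0.0667. Both bud libraries lay below all 8 earlier ones, so the p before adjustment was the smallest that so few libraries allow. With the unresolved groups left out and all 4 gastrula libraries kept, the adjusted p of this test was 0.0566.

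UCG, the reader of CGA, stood high at bud. It held 12.2 and 10.2% of the arginine counts in egg, 11.6 and 10.8% at 256-cell, 10.4 and 11.1% at 1000-cell, 11.4 and 11.4% at sphere, 11.3 and 11.5% at shield and 15.6 and 14.3% at bud. Both bud libraries stood above the other 10, while both shield libraries lay among the earlier ones. Gastrula and earlier libraries differed by 2.05 percentage points, short of the threshold after adjustment (exact permutation p = 0.0303; adjusted p = 0.0909). CCU, the reader of AGG, held 12.9 and 14.2% in egg, 14.5 and 12.7% at 256-cell, 14.0 and 12.9% at 1000-cell, 14.0 and 14.7% at sphere, 13.7 and 15.1% at shield and 12.2 and 15.9% at bud, so that the 2 bud libraries were its lowest and its highest. Its gastrula and earlier means differed by 0.483 percentage points (exact permutation p = 0.491; adjusted p = 0.491).

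**Figure D1:**
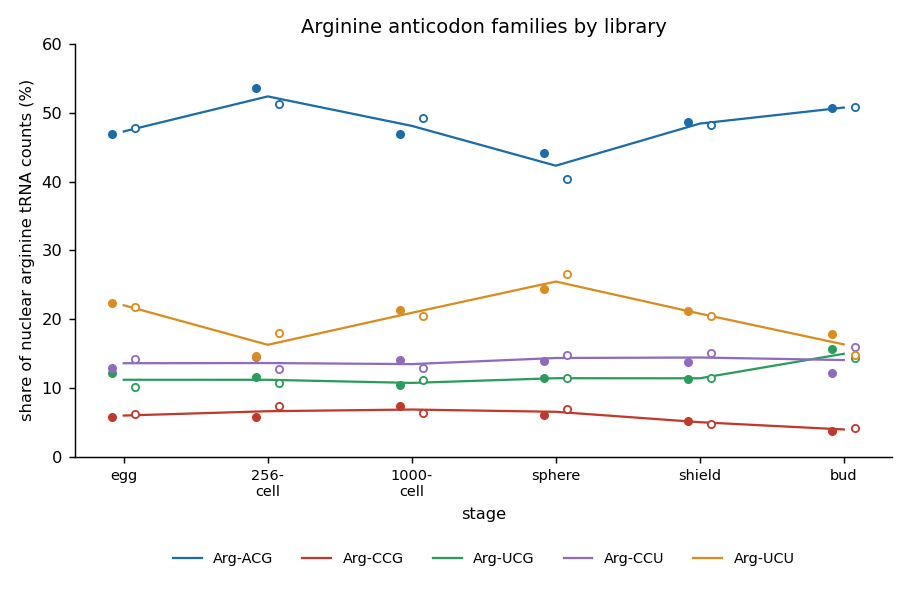
Share of each anticodon family in the nuclear arginine tRNA counts, in percent, by stage; filled points are replicate 1, open points replicate 2 and lines join the stage means. ACG stays between 40.4 and 53.6%, CCG falls to 3.76 and 4.13% at bud and UCG reaches 15.6 and 14.3% there.

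The family sums were also compared stage by stage with DESeq2, fitted on the 47 nuclear anticodon families with Benjamini-Hochberg adjusted p-values of at most 0.05 as calls. At bud against egg, 3 of the 5 arginine families were called, against 36.2% of all families. In log2 units UCG rose by 0.60 (SE 0.12, adjusted p = 2.7e-06), from normalised counts of 25523 ± 2376 to 38756 ± 769 (SD, n = 2). CCG fell by 0.42 (SE 0.16, adjusted p = 0.0271) and ACG rose by 0.28 (SE 0.11, adjusted p = 0.0328). UCU was lower by a log2 value of -0.25 (adjusted p = 0.0854) and CCU higher by 0.23 (adjusted p = 0.276), without a call. The ACG call was lost with TMM factors (adjusted p = 0.13), with total counts (adjusted p = 0.143), with the 4 libraries alone (adjusted p = 0.198), with edgeR's quasi-likelihood test (adjusted p = 0.159), without the first egg library (adjusted p = 0.272), without the second egg library (adjusted p = 0.0684) and without the second bud library (adjusted p = 0.245). The CCG call was lost without the second egg library (log2 change -0.31, adjusted p = 0.247) and without the first bud library (-0.30, adjusted p = 0.205). CCU depended on the bud library: the log2 change was 0.46 and called (adjusted p = 0.0179) without the first and -0.02 (adjusted p = 0.955) without the second. UCU was called with TMM factors (-0.31, adjusted p = 0.0256), with total counts (-0.33, adjusted p = 0.0208) and without the first bud library (-0.34, adjusted p = 0.0446).

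Against sphere 4 of the 5 arginine families were called at bud, against 29.8% of all families. ACG, CCG and UCU differed more from sphere than from egg, while UCG and CCU differed less. UCG rose by 0.50 (adjusted p = 0.000103) and ACG by 0.38 (adjusted p = 0.00308), while CCG fell by 0.61 (adjusted p = 0.000573) and UCU fell by 0.53 (adjusted p = 8.0e-05). For each of these 4 families both bud libraries lay on the same side of both sphere libraries. Since the calls chose these families, this describes them and is no further support. The share of all families with such a separation is not given. The ACG call was lost without the second bud library (0.33, adjusted p = 0.0942) and with edgeR (0.34, adjusted p = 0.0534). With resolved transcripts only, UCU was at -0.10 (adjusted p = 0.722), ACG at -0.25 (adjusted p = 0.218) and CCG at 0.11 (adjusted p = 0.616), without a call, so these 3 changes rested on the unresolved groups.

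Before gastrulation the only family call was UCU at 256-cell, which was also the single call among all 47 families (2.13%). Its normalised counts were 50376 ± 804 in egg and 36971 ± 4752 at 256-cell (SD, n = 2), and it fell by 0.45 (SE 0.12, adjusted p = 0.00959). The call was lost without the first 256-cell library (-0.34, adjusted p = 0.464), which is the deepest of the series, without the first egg library (-0.49, adjusted p = 0.112), without the second egg library (-0.43, adjusted p = 0.108) and with edgeR (-0.46, adjusted p = 0.0702). No arginine family was called against egg at 1000-cell, where the share of all families was 0%, at sphere (4.26% of all families) or at shield (17%). At an unadjusted p under 0.05 there were 0 arginine families at 1000-cell, 1 at sphere and 0 at shield.

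Single transcripts were tested with DESeq2 on the 2505 resolved nuclear transcripts, and calls were counted among the 607 detected ones, 28 of them arginine. Few were called in the early embryo. At 256-cell, 1000-cell and sphere 1 arginine transcript was called at each stage, against 0.494%, 0.494% and 0.824% of all detected transcripts, and each time it was tRNA-Arg-UCU-24; at an unadjusted p under 0.05 there were 5, 2 and 2. This transcript reached the detection level in the second sphere library only, at 0.00514% against at most 0.00437% elsewhere, so its place among the detected ones came from a stage where it was high and these counts of 1 say little about the arginine transcripts. At shield 6 were called (14.8% of all), 2 higher (8.07%) and 4 lower (6.75%). At bud 15 of 28 were called (29.3% of all), 7 higher (16.8%) and 8 lower (12.5%), and against sphere 14 were called (19.9% of all), 6 higher (13.7%) and 8 lower (6.26%). The called share of arginine at bud was 53.6%. The higher calls at shield and at bud against egg also held tRNA-Arg-UCU-24, which was counted among the detected ones only through its sphere value. The median log2 change was -0.29 over the 28 arginine transcripts and near 0 over all detected ones. Valine had 22 of 44 called, and the other amino acids with as many codons as arginine had 17 of 55 (leucine) and 12 of 49 (serine).

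The split between higher and lower calls at bud depended on the scaling. The share of all detected transcripts called is not given for the other settings in this paragraph. Their counts therefore do not set arginine against the rest. Relative to DESeq2's size factors, the median detected transcript shifted by 0.12 on the log2 scale at bud against egg with TMM factors and by -0.38 with total nuclear counts. The 7 higher and 8 lower calls became 7 and 3 with TMM factors, 7 and 3 with edgeR and 5 and 10 with total counts. The falls lost with TMM factors were those of tRNA-Arg-ACG-5, tRNA-Arg-CCG-5, tRNA-Arg-CCU-3, tRNA-Arg-UCG-8 and tRNA-Arg-UCU-12, and the rises lost with total counts were those of tRNA-Arg-UCG-2 and tRNA-Arg-UCG-4. Without the first bud library 8 transcripts were called, and without the second egg library 9. At shield 1 call was left without the first egg library, 2 without the second, 3 without either shield library and 3 with edgeR. Against sphere, the 14 calls became 9 without the first sphere library, 7 without the second, 9 without either bud library and 6 with edgeR.

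A large internal change was seen in UCG, all of whose 10 transcripts could be told apart. In the egg tRNA-Arg-UCG-8, with 27 gene copies the main UCG gene, was the leading transcript, and at bud it was tRNA-Arg-UCG-1, with 5 copies. tRNA-Arg-UCG-8 made up 50.0 and 57.6% of the UCG counts in egg, 43.4 and 53.2% at 256-cell, 53.2 and 47.3% at 1000-cell, 49.6 and 51.4% at sphere, 33.7 and 31.8% at shield and 13.9 and 19.0% at bud. tRNA-Arg-UCG-1 made up 26.8 and 23.4% in egg, 32.7 and 26.2% at 256-cell, 26.4 and 26.8% at 1000-cell, 31.4 and 24.7% at sphere, 39.9 and 41.0% at shield and 51.9 and 51.6% at bud. The order of the pair was the same in all 8 libraries up to sphere and was inverted in all 4 gastrula libraries.

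tRNA-Arg-UCG-1 had 6792 and 5690 normalised counts in egg, 9602 and 10824 at shield and 24341 and 24037 at bud. It rose by 1.96 in log2 at bud against egg (SE 0.26, adjusted p = 4.3e-12), and both shield libraries already lay above the egg ones without a call (0.71, adjusted p = 0.0702). tRNA-Arg-UCG-8 had 12636 and 13997 normalised counts in egg, 8106 and 8382 at shield and 6535 and 8845 at bud. It fell by 0.69 at shield (SE 0.22, adjusted p = 0.0241) and by 0.79 at bud (SE 0.22, adjusted p = 0.00288), with no overlap of libraries. Of the nuclear counts it held 0.497 and 0.515% in egg, 0.329 and 0.321% at shield and 0.193 and 0.255% at bud. The fall at bud lay between log2 changes of -1.18 and -0.57 over the 9 alternatives run. This fall was smaller than the rise of its partner and less stable: at bud it was -0.66 with edgeR (adjusted p = 0.0599), -0.71 without the second egg library (adjusted p = 0.0792) and -0.57 without the first bud library (adjusted p = 0.176), and at shield the call was lost when any 1 of the 4 libraries was left out (adjusted p from 0.108 to 0.255).

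3 single-copy UCG transcripts rose beside tRNA-Arg-UCG-1. tRNA-Arg-UCG-3 had 1306 and 2026 normalised counts in egg, 1669 and 2845 at shield and 10504 and 8479 at bud, and rose by 2.51 (SE 0.50, adjusted p = 1.4e-05) against egg and by 2.19 (SE 0.50, adjusted p = 0.00019) against sphere. Its egg and shield libraries overlapped, and both bud libraries stood above all earlier ones. tRNA-Arg-UCG-2 had 1996 and 1864 in egg, 3485 and 3262 at shield and 4081 and 3950 at bud. Of the nuclear counts it held on average 0.0736% in egg, 0.133% at shield and 0.117% at bud. The direction of its change from shield to bud thus depended on the scaling. Of the UCG counts tRNA-Arg-UCG-2 held on average 7.78% in egg, 13.4% at shield and 8.59% at bud. It was the 1 UCG transcript called higher at shield (0.81, SE 0.27, adjusted p = 0.038), a call that was lost when any 1 of the 4 libraries was left out (adjusted p from 0.14 to 0.29), and it rose by 1.06 at bud (adjusted p = 0.00115, and 0.0518 without the first bud library). tRNA-Arg-UCG-4 had 337 and 279 in egg and 895 and 588 at bud, and rose by 1.27 (SE 0.35, adjusted p = 0.003); without the second egg library the adjusted p was 0.0642 and without the first bud library 0.164.

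tRNA-Arg-UCG-6, with 2 copies, moved the other way, from 934 and 302 normalised counts in egg to 151 and 171 at shield and 125 and 177 at bud. It fell by 1.93 at shield (SE 0.46, adjusted p = 0.00124) and by 2.02 at bud (SE 0.46, adjusted p = 0.000222). The first egg library held about 3 times the value of the second, and without it the changes were -0.91 (adjusted p = 0.106) and -0.99 (adjusted p = 0.0481).

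CCG also showed a large exchange, and it came later. The unresolved group tRNA-Arg-CCG-1/3, with 19 of the 29 copies, made up 61.4 and 64.1% of the CCG counts in egg, 65.7 and 64.3% at sphere, 62.8 and 57.5% at shield and 37.0 and 45.4% at bud. The single-copy tRNA-Arg-CCG-2 made up 20.2 and 12.7% in egg, 13.2 and 17.2% at sphere, 17.1 and 22.8% at shield and 50.1 and 40.9% at bud. At bud this 1 gene thus gave about as many CCG counts as the 19 copies of the group, leading in the first library and not in the second. Its normalised counts were 2423 and 1875 in egg, 1888 and 2513 at shield and 5660 and 5506 at bud, a rise of 1.38 (SE 0.28, adjusted p = 2.7e-05). tRNA-Arg-CCG-5, with 5 copies, had 1579 and 2243 in egg and 916 and 1336 at bud and fell by 0.77 (SE 0.29, adjusted p = 0.0442), a call that was lost without the second egg library (-0.48, adjusted p = 0.388), without the first bud library (-0.50, adjusted p = 0.455) and with edgeR (adjusted p = 0.239). The family's loss of share came beside a rise of its single-copy member, and the sum of the 3 resolved CCG transcripts was higher at bud than in egg by 0.18 (adjusted p = 0.317).

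**Figure D2:**
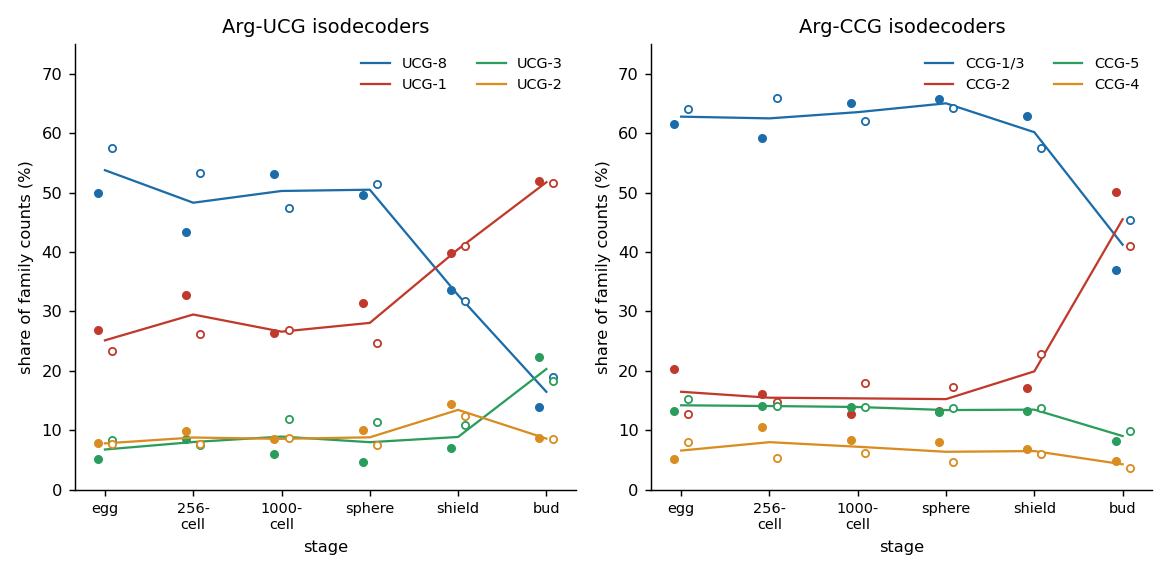
Share of the family's counts, in percent, held by the 4 most abundant entries of Arg-UCG (left) and Arg-CCG (right) by stage; filled points are replicate 1, open points replicate 2, and lines join the stage means. UCG-8 falls from 50.0 and 57.6% in egg to 13.9 and 19.0% at bud while UCG-1 reaches 51.9 and 51.6%, and CCG-2 rises to 50.1 and 40.9% at bud only.

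In the 3 larger families the same entry led in every library. The summed difference in composition between egg and bud, that is the part of a family's counts that would have to change entry to turn one mean composition into the other, was 41.3 percentage points for UCG and 29.0 for CCG. It was 6.88 for UCU, 2.38 for ACG and 1.57 for CCU. These values count an unresolved group as 1 entry, so an exchange inside a group was not measured. Over the resolved transcripts alone the distance was 47.7 points in UCU and 12.2 in ACG, so the order of the families depended on the groups. Replicates of egg and of bud differed by 10.8 and 5.55 points in UCG, by 7.52 and 10.2 in CCG, by 1.44 and 1.01 in UCU, by 0.638 and 0.50 in ACG and by 1.24 and 0.255 in CCU. The egg to shield distance was 24.03 points in UCG but 3.44 in CCG, below the 7.52 between the egg replicates. Up to sphere no family moved further from egg than the larger of its replicate differences in the stages compared, except UCU, where 256-cell, 1000-cell and sphere lay 2.49, 2.17 and 2.29 points from egg and replicates differed by at most 1.64.

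In UCU the group of 11 names, with 97 of the 132 copies, held 86.3 to 90.5% of the family's counts in every library, and every UCU transcript called was a single-copy member beneath it. tRNA-Arg-UCU-1 had 793 and 813 normalised counts in egg, 625 and 768 at 256-cell, 681 and 693 at 1000-cell, 948 and 907 at sphere, 1174 and 1213 at shield and 4610 and 3876 at bud. It rose by 2.40 at bud against egg (SE 0.20, adjusted p = 2.9e-30) and by 2.19 against sphere (SE 0.20, adjusted p = 1.8e-26), and its share of the family went from 1.71 and 1.56% in egg to 8.62 and 8.01% at bud. At shield both libraries already lay above the egg ones, without a call (0.57, adjusted p = 0.0589).

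Other UCU transcripts fell. tRNA-Arg-UCU-12, in egg the most abundant resolved member, had 2571 and 3336 normalised counts in egg, 1070 and 1813 at 256-cell and 1251 and 1537 at bud. It fell by 1.08 at bud (SE 0.34, adjusted p = 0.0119). The lower values at 256-cell were not called (DESeq2 adjusted p = 0.21). Its mean was 1966 at 1000-cell and 2594 at sphere, where the libraries overlapped those of egg. tRNA-Arg-UCU-16 had 491 and 455 in egg, 222 and 162 at shield and 182 and 142 at bud, and fell by 1.30 at shield (SE 0.37, adjusted p = 0.0101) and by 1.55 at bud (SE 0.37, adjusted p = 0.000544). tRNA-Arg-UCU-33 had 148 and 243 in egg and 54.1 and 51.3 at bud, and fell by 1.91 (SE 0.43, adjusted p = 0.000148). For tRNA-Arg-UCU-16 the shield call was lost without the first egg library (adjusted p = 0.101), without the second (adjusted p = 0.0512), without the second shield library (adjusted p = 0.144) and with edgeR (adjusted p = 0.0815). All 3 bud falls kept egg and bud libraries apart, and those of tRNA-Arg-UCU-16 and tRNA-Arg-UCU-33 were called under each of the 9 alternatives run, while that of tRNA-Arg-UCU-12 was called under 4 and the adjusted p reached 0.207. tRNA-Arg-UCU-8 and tRNA-Arg-UCU-22 were called against sphere only, where each was highest. tRNA-Arg-UCU-8 had 734 and 697 normalised counts at sphere and 348 and 314 at bud, and fell by 1.11 (SE 0.24, adjusted p = 6.4e-05). tRNA-Arg-UCU-22 had 226 and 268 at sphere and 133 and 150 at bud, and fell by 0.80 (SE 0.30, adjusted p = 0.0439), a call made under 2 of the 9 alternatives.

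tRNA-Arg-UCU-24 differed from all of these in its timing. It had 1 and 0 counts in the egg libraries, and then 240 and 57 at 256-cell, 32 and 104 at 1000-cell, 62 and 95 at sphere, 110 and 135 at shield and 33 and 58 at bud. Every library after the egg held it and no egg library held more than 1 count. Set against a floor of 3 counts in the shallower egg library, its mean normalised count was at least 7.59-fold higher at 256-cell, at least 8.64-fold at 1000-cell, at least 10.2-fold at sphere, at least 6.47-fold at shield and at least 4.31-fold at bud. With the second egg library alone, the deeper of the pair, the bound at 256-cell was at least 18.2-fold. The DESeq2 adjusted p was 0.00503 at 256-cell and 0.00142 at bud, and without the second egg library no stage was called (adjusted p from 0.0608 to 0.267). At 1000-cell the call was also lost without the first egg library (adjusted p = 0.0576) and without the second 1000-cell library (adjusted p = 0.19). The transcript stayed rare, with at most 0.00514% of the nuclear counts.

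**Figure D3:**
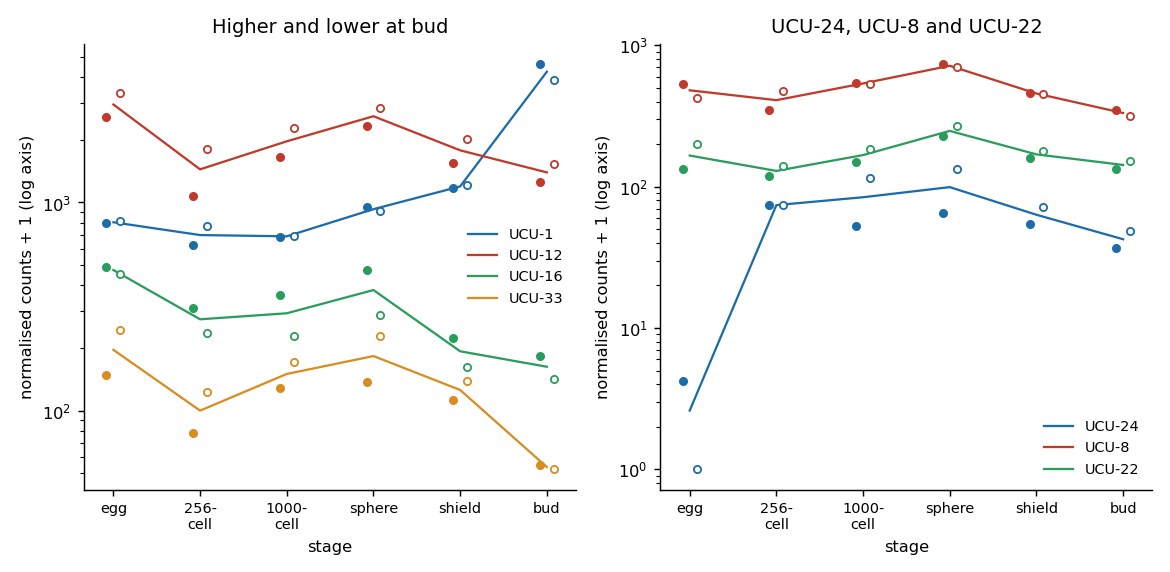
Normalised counts plus 1 (log axis) of 7 single-copy Arg-UCU transcripts by stage; filled points are replicate 1, open points replicate 2, and lines join the stage means. UCU-1 reaches 4610 and 3876 normalised counts at bud, UCU-16 and UCU-33 fall there, and UCU-24 is near 0 in both egg libraries and present in every later one.

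A further pair, chosen after their values were seen because they were called although under the detection level, behaved in opposite ways. tRNA-Arg-CCU-1, with 19 gene copies, had 2 and 15 counts in egg, 368 and 79 at 256-cell, 55 and 61 at 1000-cell, 79 and 56 at sphere, 143 and 169 at shield and 45 and 126 at bud. In normalised counts all later libraries lay above both egg libraries, by a log2 change of 2.83 at 256-cell (SE 0.57, adjusted p = 0.000641) and of 2.34 at bud (SE 0.57, adjusted p = 0.000715); the bud call was lost without the second bud library (1.69, adjusted p = 0.068). tRNA-Arg-UCU-9 had 34 and 25 counts in egg and between 7 and 38 in later libraries, and was called lower at 256-cell, shield and bud. With the 4 libraries compared alone, DESeq2 made none of these calls on tRNA-Arg-UCU-9 (adjusted p = 0.225, 0.0973 and 0.0835). Its normalised counts in the egg pair were 109 and 33.5, and without the first egg library the change at bud was -1.10 (adjusted p = 0.545).

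CCU and ACG were each carried by 1 entry. tRNA-Arg-CCU-2, with 53 of the 78 copies, made up 96.7 to 98.9% of the CCU counts and tRNA-Arg-ACG-1/6 made up 93.7 to 96.4% of the ACG counts. tRNA-Arg-CCU-2 had 25928 and 33377 normalised counts in egg and 36079 and 51287 at bud, higher in both but without a call (0.56, adjusted p = 0.108). The size of this rise depended on the scaling, since the whole family was higher by only 0.23 in log2, with overlapping libraries. As a share of the nuclear counts, tRNA-Arg-CCU-2 had a mean of 1.12% in egg and 1.27% at bud. Its single-copy companion tRNA-Arg-CCU-3 had 867 and 683 in egg, 398 and 467 at shield and 429 and 480 at bud. It fell by 0.83 at shield (SE 0.23, adjusted p = 0.0075), which was lost without the first egg library (adjusted p = 0.186) and without the first shield library (adjusted p = 0.218). It fell by 0.76 at bud (SE 0.23, adjusted p = 0.00896), which was lost without the first egg library (-0.58, adjusted p = 0.24), without the first bud library (adjusted p = 0.22), without the second bud library (adjusted p = 0.0824) and with edgeR (adjusted p = 0.245). Among the minor ACG transcripts tRNA-Arg-ACG-5, with 3 copies, had 1127 and 1287 in egg and 732 and 770 at bud, and fell by 0.69 (SE 0.23, adjusted p = 0.021), a call that was lost when any 1 of the 4 libraries was left out (adjusted p from 0.0844 to 0.258). The most abundant resolved ACG transcripts in egg, tRNA-Arg-ACG-3 and tRNA-Arg-ACG-8, were lower at bud by log2 values of -0.28 (adjusted p = 0.611) and -0.36 (adjusted p = 0.661). The sum of the resolved ACG transcripts, a small part of the pool, went down at bud (-0.49, DESeq2 adjusted p = 0.00361) while the family as a whole was higher. The unresolved tRNA-Arg-ACG-1/6 had a mean of 3.77% of the nuclear counts in egg and 4.46% at bud.

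On means over all libraries the arginine families had the same order by gene copies and by counts, but not in detail. At bud the mean share of UCG (14.9%) stood above that of CCU (14.0%), in the first library and not in the second. Over all anticodon families, the paper found no significant correlation of tRNA reads with gene copy number at any stage. ACG held 32.8% of the arginine gene copies and on average 48.2% of the counts, UCU 31.4% of the copies and 20.3% of the counts, CCU 18.5 and 13.9%, UCG 10.5 and 11.8% and CCG 6.89 and 5.81%. Per gene copy, ACG gave 0.0291% of the nuclear counts in egg and 0.0336% at bud, UCG 0.0215 and 0.0310%, CCG 0.0175 and 0.0124%, CCU 0.0148 and 0.0165% and UCU 0.0141 and 0.0113%. CCG and UCG were thus close to each other per copy in egg and apart at bud. The RefSeq annotation of a later assembly, GRCz12tu, lists 551 arginine tRNA genes with these anticodons, 186 of them UCU, 149 ACG, 108 CCU, 68 UCG and 40 CCG.

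The detected transcripts that were called higher at bud had few gene copies, while tRNA-Arg-CCU-1, under the detection level and so not among them, was also called higher and has 19. Of the 7, 6 had 1 copy and tRNA-Arg-UCG-1 had 5, so that together they stood for 11 copies, and they held 5.91 ± 0.939% of the arginine counts in egg, 8.93 ± 0.371% at shield and 15.5 ± 1.71% at bud (SD, n = 2). The 8 called lower had 41 copies together, 27 of them tRNA-Arg-UCG-8, and went from 9.61 ± 0.266% in egg to 3.75 ± 0.487% at bud. Since the calls chose these transcripts, the values describe their weight in the pool and are no test. The 7 higher ones include the single-copy tRNA-Arg-UCU-24, which reached the detection level only in a sphere library. Single-copy transcripts were common in general: 17 of the 28 detected ones had 1 copy, 6 of these higher, 4 lower and 7 not called. Across the 28 detected transcripts the Spearman correlation of gene copies with the share of nuclear counts was 0.47 in egg, 0.44 at sphere, 0.37 at shield and 0.33 at bud; the transcripts share libraries and families, and the values are given as a description. The lower value at bud depended on which entries were taken: over all 49 resolved transcripts it was 0.25 both in egg and at bud, and with the 3 groups added to the detected ones it was 0.62 in egg and 0.50 at bud. Per copy, tRNA-Arg-UCG-3 gave 0.277% of the nuclear counts at bud, tRNA-Arg-CCG-2 0.163%, tRNA-Arg-UCG-1 0.141%, tRNA-Arg-UCU-1 0.124% and tRNA-Arg-UCG-2 0.117%. tRNA-Arg-UCG-8 gave 0.0083% and the 117 copies of tRNA-Arg-ACG-1/6 on average 0.0382% each.

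**Figure D4:**
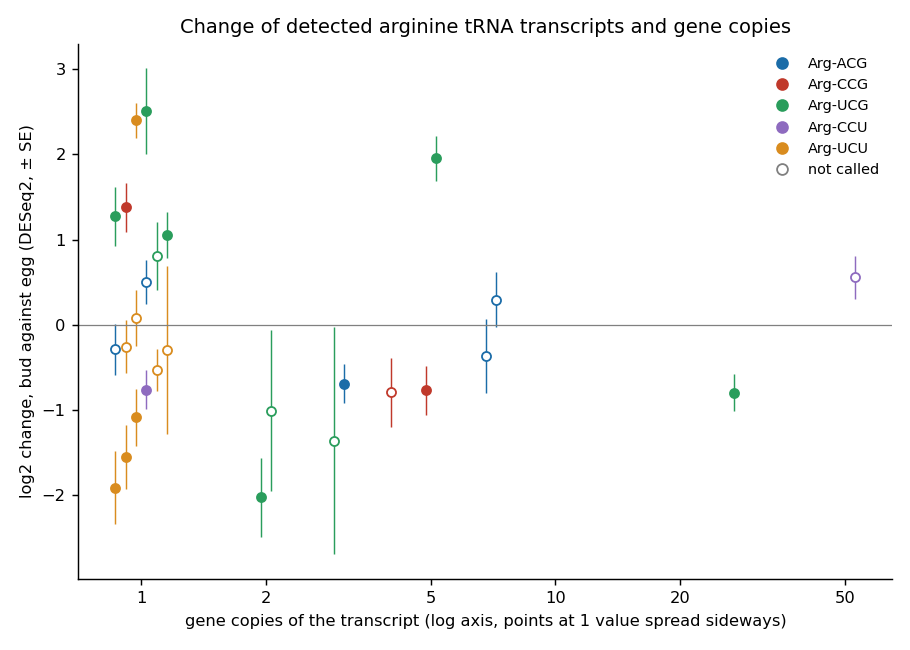
Log2 change at bud against egg (DESeq2, bars are standard errors) of 27 detected arginine tRNA transcripts against their gene copies on a log axis; filled points were called at an adjusted p of at most 0.05, and tRNA-Arg-UCU-24 is left out because both egg libraries were at 1 count or less. The called rises lie at 1 copy, apart from tRNA-Arg-UCG-1 at 5.

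Charging, the percentage of each family's tRNAs that carried the amino acid, was high in all arginine families. The RNA was extracted under mild acid and treated by oxidation and beta-elimination, which shortens the 3′ end of uncharged tRNA only, so that the end of a read told both states apart. The depth behind the values is unknown because only fractions were given. UCG was 91.8, 92.7 and 93.4% charged in the sphere libraries and 91.6, 94.4 and 91.6% at bud. CCG was 91.1, 94.7 and 93.9% charged at sphere and 90.6, 94.1 and 91.6% at bud. Both stood among the most highly charged of the 46 families, CCG at rank 41 and 40 and UCG at rank 37 and 41 from the lowest at sphere and bud. The other arginine families ranked lower, ACG at 6 and 15, CCU at 11 and 25 and UCU at 28 and 29.

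UCU was 88.6, 92.0 and 90.7% charged at sphere and 87.9, 92.8 and 89.9% at bud. CCU was 86.0, 88.3 and 87.4% charged at sphere and 87.7, 91.8 and 88.9% at bud, higher at bud in its mean but with overlapping libraries. ACG was 84.0, 88.3 and 76.2% charged at sphere and 84.4, 91.7 and 88.1% at bud. The third sphere library thus gave ACG 76.2%, the lowest of all 276 values in the table, and the SD of ACG at sphere was 6.11 percentage points where those of the other 4 families lay between 0.812 and 1.88.

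Between bud and sphere no family of the 46 was called with limma (0% called), which used 1 common estimate of the spread for all families, and 2 families had an unadjusted p under 0.05. ACG was 5.23 percentage points higher at bud (95% confidence interval 1.63 to 8.83, adjusted p = 0.106), the second largest difference in the table, and an exact permutation test of 3 against 3 libraries gave p = 0.3, where 0.1 is the smallest possible. This difference rested on the third sphere library, without which it was 1.92 points (adjusted p = 0.988). It was called without the second sphere library (7.94, adjusted p = 0.0147) and without the first bud library (7.06, adjusted p = 0.0085), 2 settings that leave the low value in place. CCU was 2.25 points higher (-1.35 to 5.85), CCG differed by -1.15 points (-4.75 to 2.45), UCG by -0.12 (-3.72 to 3.48) and UCU by -0.22 (-3.82 to 3.38), so that changes of a few points either way lay within the intervals. Whole libraries also stood apart, with medians over the 46 families from 87.8% in the first bud library to 92.2% in the second; their part in these differences was not tested, apart from setting each library to its own median, which gave 5.76 points for ACG (adjusted p = 0.259) and 2.78 for CCU (adjusted p = 0.0178).

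**Figure D5:**
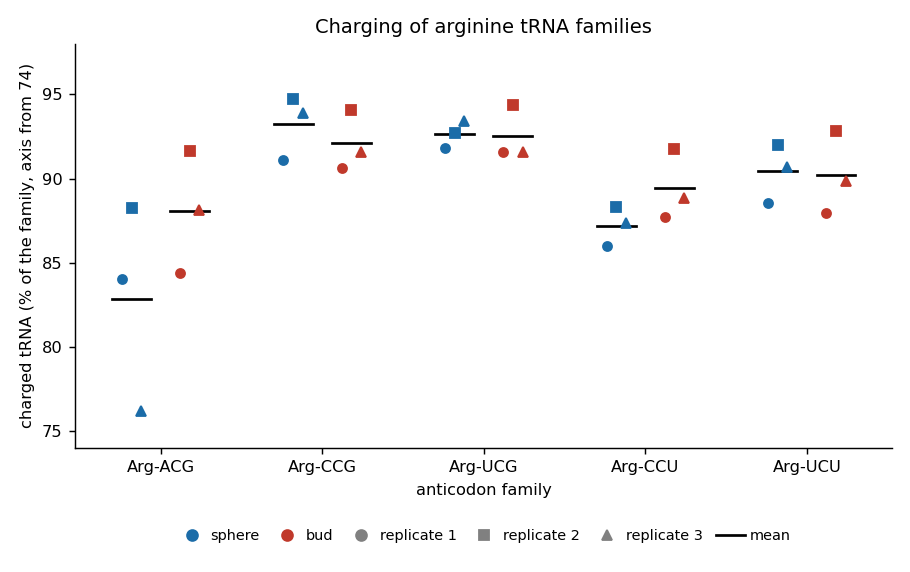
Percentage of charged tRNA in the 5 arginine anticodon families in 3 sphere and 3 bud libraries; the marker shape gives the replicate number and bars are means, and the axis starts at 74%. ACG at sphere holds the lowest value, 76.2%, and CCG and UCG lie above 90% in every library.

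Leucine and serine served as the comparison for the balance between anticodons, being read by as many codons. The summed shift of the anticodon shares from egg to bud was 7.71 percentage points in arginine, against 2.60 between the egg and 4.28 between the bud replicates. It was 10.5 points in leucine (3.63 and 2.47 between replicates) and 8.09 in serine (6.87 and 3.35). Threonine had the largest shift of the 12 amino acids with more than 1 family, at 11.8 points, and arginine was at rank 4.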

How the data were processed

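The authors prepared libraries with mim-tRNAseq, trimmed reads with cutadapt 3.5 (submitters' processing notes), aligned them to GRCz11 tRNAs and deposited unnormalised read counts per tRNA entry, with isodecoders that could not be separated kept as groups. The authors also deposited the charged fraction of each anticodon family, multiplied here to percent. The arginine transcripts and lists were chosen with earlier results of these data known.

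Counts of resolved nuclear transcripts, and separately of family sums, were fitted with DESeq2 1.42.0 (R 4.3.3) by stage over the 12 libraries, with Benjamini-Hochberg adjustment; mitochondrial entries (22 of 2600) were left out. Calls were counted among transcripts with at least 0.005% of nuclear counts in 1 library. Shares were tested by exact permutation of libraries (scipy 1.17.1), 6 tests, with libraries of the same stage treated as independent. Charging was fitted with limma 3.58.1 over 46 families. Scripts were tested on simulated data. Alternatives were TMM factors, total counts, edgeR 4.0.16, the 4 libraries compared alone, a replicate block, other detection levels, resolved transcripts only and leaving out each library; centring charging libraries on their medians was added after seeing the data. Text names the 5 families, the 2 leading resolved transcripts of each, groups with at least 5% of a family, and called transcripts.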

Additional observations from a re-analysis of the deposited data

How the results depend on the processing

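UCG kept its family rise and CCG-2, UCG-1, UCG-3 and UCU-1 kept their bud calls under every alternative run. With resolved transcripts only, which drops the groups holding most ACG, UCU and CCG counts, the gastrula difference in share was -2.16 points for ACG, -0.99 for CCG and -0.60 for CCU, the family change was -0.49 (bud against egg) and -0.25 (against sphere) for ACG, 0.18 and 0.11 for CCG and -0.10 (against sphere) for UCU, and turnover was 12.2 points in ACG and 47.7 in UCU. Bud alone gave -2.54 points for CCG. With mitochondrial counts in the denominator the gastrula difference in the arginine share was 0.940 points, against 0.388 over nuclear counts, so its size depended on the denominator. The paper reports that the mitochondrial proportion of reads decreased over these stages. A detection level of 0.05% left 0, 0, 0, 2, 9 and 9 arginine calls (256-cell, 1000-cell, sphere, shield and bud against egg, bud against sphere). Fewer than the 28 arginine transcripts reach that level, so these counts are not parts of 28 and do not show that a smaller part was called. Without a detection level there were 3, 2 and 2 calls for the first 3, out of all 49 single transcripts. The share called among all transcripts is not given for the alternatives, so these counts do not set arginine against the rest. EdgeR gave 3 at shield and 6 against sphere, and the 4 libraries alone 3 at shield. At bud against egg ACG was 0.23 with TMM factors, 0.21 with total counts, 0.23 with edgeR and 0.22 with the 4 libraries alone, and UCU -0.31 and -0.33 with the first 2. At 256-cell UCU was -0.46 with edgeR and -0.45 (adjusted p = 0.252) with the 4 libraries alone. Charging with centred libraries was 0.405 points for UCG, 2.78 for CCU and 0.308 for UCU. The cause was not tested.

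Leaving out 1 library gave 1 to 2, 0 to 1, 1 to 2, 1 to 3, 8 to 14 and 7 to 9 calls in the same order, -0.0792 to 1.17 points for the CCU share, log2 changes at bud against egg of 0.22 to 0.35 (ACG), -0.53 to -0.30 (CCG), -0.022 to 0.46 (CCU) and -0.34 to -0.17 (UCU), 0.30 to 0.47 for ACG against sphere, -0.58 to -0.34 for UCU at 256-cell, 0.953 to 2.20 points of CCU turnover, and charging differences of 1.92 to 7.94 (ACG), -1.05 to 0.346 (UCG) and -1.52 to 0.921 (UCU). Where this left 1 library in a stage, it was assumed to vary like the others.

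The replicate numbers were not taken as pairs: in charging, deviations of same-numbered libraries correlated at -0.16, 0.32 and -0.36, and in abundance at -0.17 to 0.86 over 15 pairs of stages, 13 above 0.1, and while the methods name different days the labels tie no number to a day. With the replicate number as a block 4 arginine transcripts were called at 256-cell, and the ACG charging difference of 5.23 points was called (limma adjusted p = 0.00315). At shield 8 were called, at bud 15 and against sphere 16, all 46 calls on named transcripts were kept, and no other arginine result changed its call. The share of all detected transcripts called with the block is not given, so these counts do not set arginine against the rest.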

Other observations

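A pair of low UCG transcripts, chosen after their values were seen, differed between the replicate numbers at most stages. tRNA-Arg-UCG-9 had 411 and 32.2 normalised counts in the first and second egg library, 286 and 81.8 at 256-cell, 232 and 92.7 at 1000-cell, 304 and 82.0 at sphere, 182 and 40.6 at shield and 137 and 35.0 at bud, so that replicate 1 was higher at all 6 stages. tRNA-Arg-UCG-10 had 738 and 38.9 in egg, and then 199 and 438 at 256-cell, 187 and 467 at 1000-cell, 221 and 488 at sphere, 129 and 277 at shield and 122 and 263 at bud, with replicate 2 higher at every stage but the egg. A difference of at least 2-fold in the same direction in 5 or more stages was found for these 2 of the 28 detected arginine transcripts and for 14 of all 607 (2.31%). The cause was not tested.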
